A study of Homo sapiens with 12 samples.

Results

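The comparison described here sets both engineered lines of H295R against wild-type cells of the same line. H295R is an established human adrenocortical carcinoma line that makes steroid hormones. Cells labelled KD had the gene DLK1 knocked down, cells labelled OE over-expressed it, and cells labelled WT were unmodified, all 3 on the same H295R background and harvested at the same stated confluence. The 8 engineered libraries (4 KD and 4 OE, numbered as replicates 3, 4, 5 and 6) were compared with the 4 WT libraries that carry the same numbers, with KD and OE given equal weight. The study's stated aim was to set transcriptomes at different DLK1 levels side by side. Pooling the lines asks the complementary question of which genes moved alike in both, whatever the DLK1 level. Of the 60671 genes in the table, 15916 had enough counts to be tested, and 217 moved alike, meaning that they were called in the pooled comparison and in each line against WT, all in the same direction.

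The labels do not say how DLK1 was lowered or raised, or whether each line is a clone or a pool. None of the 12 libraries is labelled as a control-vector line. The DLK1 level, the engineering itself and drift between cultures therefore cannot be told apart in these comparisons. KD against WT and OE against WT also share the same 4 WT libraries, so a WT library that reads high or low moves both in the same direction. Whether the replicates of a group were grown as separate cultures is not stated. The p-values given therefore reflect only how much these libraries varied, which could be technical variation.

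DLK1 encodes a transmembrane protein with epidermal growth factor repeats, related to the Notch ligands, and is an imprinted gene expressed from the paternal copy. It is known from precursor cells of several tissues, where it falls as the cells differentiate, and it marks progenitor cells of the adrenal cortex. Adrenocortical cells take up or make cholesterol, move it into mitochondria with the protein STAR, and turn it into steroid hormones through a chain of cytochrome P450 enzymes and dehydrogenases.

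DLK1 itself (ENSG00000185559, chromosome 14, 100725705 to 100738224, GRCh38) did not move alike. Its level, in CPM (counts scaled for library size and composition) and in the order of replicates 3, 4, 5 and 6, was 2790, 2729, 2674 and 2485 CPM in WT libraries, 1484, 1261, 1236 and 1361 for KD, and 3170, 3014, 3343 and 3298 for OE. No library of one group overlapped another group. DLK1 was 1.26 ± 0.05 higher in OE than in KD on the log2 scale (± standard error; edgeR quasi-likelihood test, adjusted p = 1.44e-10). The pooled change of -0.37 ± 0.05 (adjusted p = 8.47e-05) averages a fall of 1.00 ± 0.05 in KD and a rise of 0.26 ± 0.05 in OE.

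Gene counts summed to between 9303266 and 13797397 per library, and 22032 to 23235 genes had at least 1 count. All 11 adrenocortical markers were tested, and their summed level was 3686 to 3854 CPM in WT, 3196 to 3697 in KD and 3598 to 3786 in OE. The 9 chromaffin markers summed to 80.1 to 84.4 CPM for WT libraries, 90.6 to 111 for KD and 77.9 to 87.5 for OE, although TH, DBH and PHOX2A had 0 counts in every library. Of these markers 4 were tested and 1 was called, CHGB, a granin of secretory granules. It averaged 30.9 CPM over WT libraries, 58.2 over KD and 32.5 over OE. CHGB rose in KD (log2 0.92 ± 0.08, edgeR adjusted p = 2.18e-12) and was not called in OE (0.07 ± 0.09, adjusted p = 0.747), and its part in the results was not tested. Summed fibroblast markers ranged from 45.4 to 53.1 CPM over the 12 libraries, endothelial markers from 1.04 to 3.3 and immune markers from 0.983 to 3.51, with CDH5, CD3E and MS4A1 at 0 counts. The share of counts from the mitochondrial genome was 7.78, 7.72, 8.37 and 7.85% in WT libraries, 4.99, 7.49, 7.15 and 6.65% for KD, and 7.56, 7.17, 7.31 and 7.19% for OE. It was lower in the engineered libraries by 0.989 percentage points (two-sided exact permutation test over the 12 libraries, p = 0.00404), with KD replicate 3 the lowest. Pairs of replicates differed by a chi-square per degree of freedom of 2.68 to 4.02, but by 5.74 to 9.94 for the pairs with KD replicate 3. The parts of these 2 measures in the results were not tested beyond leaving out that library and leaving out the mitochondrial genes.

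The second principal component of log2 CPM, with 12.9% of the variance, set the WT libraries (13.66 to 22.88) apart from KD (-5.881 to -4.44) and OE (-15.03 to -13.33). The first, with 17.1%, ran from OE (-18.57 to -14.21) through WT (-11.2 to -1.82) to KD (15.47 to 30.92).

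**Figure D1:**
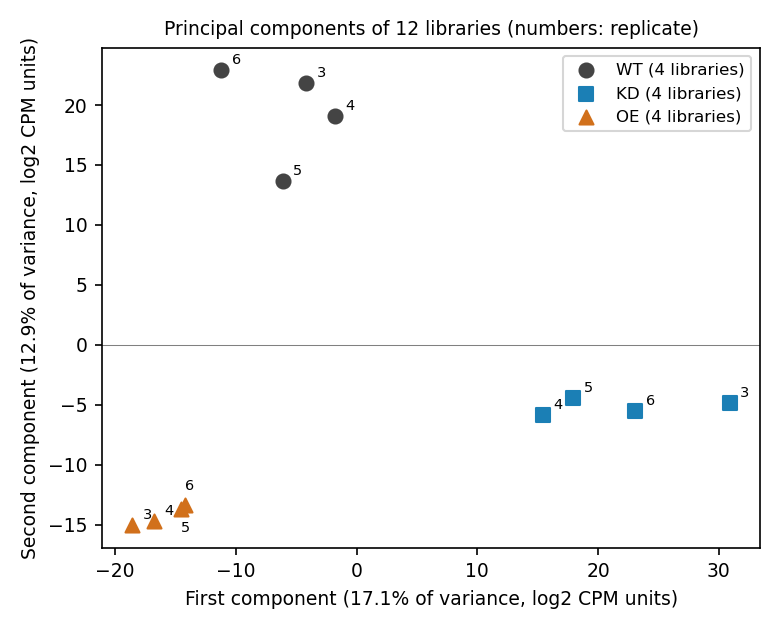
Scores of the 12 libraries on the first 2 principal components of log2 CPM; each point is a library and its number is the replicate. WT libraries lie at 13.66 or more and all 8 engineered libraries below 0 on the second component, and the first orders OE, WT and KD.

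In the pooled comparison 867 genes were called, 5.45% of those tested (edgeR, adjusted p under 0.05 over all 15916 genes). Of these, 351 (2.21%) were higher and 516 (3.24%) lower in the engineered lines. In KD against WT 9.06% of genes were called, in OE against WT 5% and in OE against KD 13.8%. Most pooled calls were matched by a call in just 1 of the lines. Of the 351 higher genes, 69 were called in both lines (0.434% of genes tested), 180 in KD but not OE, 86 in OE but not KD, 15 in neither alone and 1 in opposite directions. Of the 516 lower genes, 148 were called in both lines (0.93%), 236 in KD but not OE, 109 in OE but not KD, 22 in neither alone and 1 in opposite directions. With library sizes alone in place of TMM factors, which correct for composition, the pooled calls were 512 higher and 381 lower, and the genes moving alike 120 higher and 110 lower. The share of higher calls then went from 40.5 to 57.3% of pooled calls and from 31.8 to 52.2% of the genes moving alike, while the median log2 change of all genes went from 0.002 to 0.029. Leaving out WT replicate 5 or WT replicate 3 lowered the 867 calls to 553 and 561. The higher genes fell from 351 to 206 without either, to 209 without WT replicate 6 and to 233 without WT replicate 4.

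The genes moving alike were mostly small changes in well expressed genes. Their median pooled change was 0.321 for the 69 higher (0.32 in KD and 0.374 in OE) and -0.336 for the 148 lower (-0.331 and -0.302) on the log2 scale. The smaller of the 2 line changes reached 1 on the log2 scale for 1 higher and 14 lower genes. Their median level was 77.2 CPM against 20.8 over all genes tested, and 97.2% were protein-coding against 81.8%. The WT range did not overlap the engineered range for 196 of the 217, 59 higher and 137 lower. Over all genes tested, 1.23% were higher and 1.73% lower without overlap. Called in the 3 comparisons at once in each of the 12 fits that left out 1 library were 115 of the 217, 37 higher and 78 lower. The number kept ranged from 155 without WT replicate 5 to 199 without KD replicate 5.

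**Figure D2:**
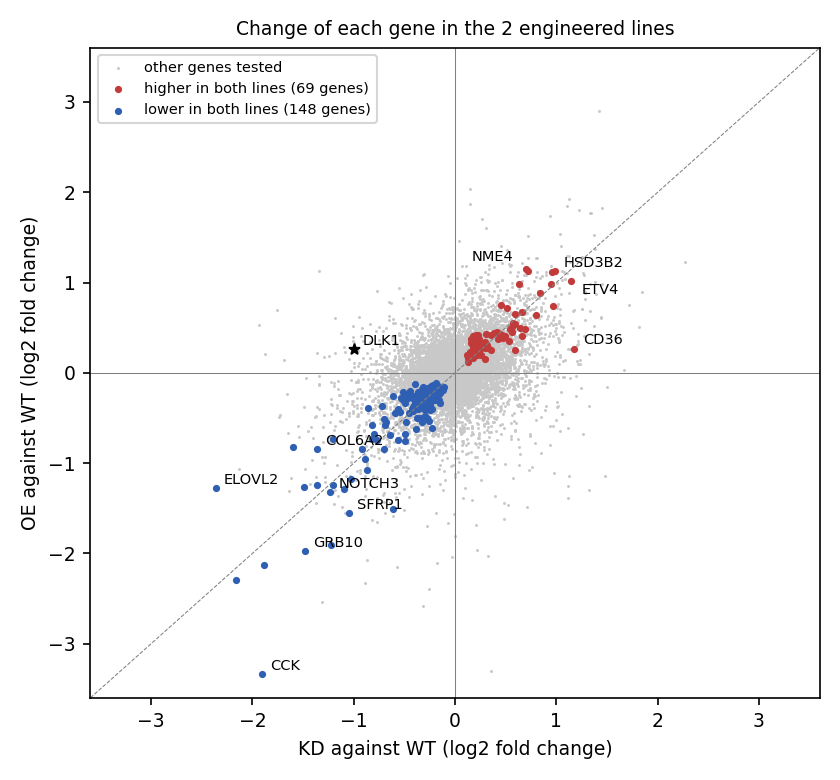
Log2 fold change of each gene tested in OE against WT (vertical) and in KD against WT (horizontal); red and blue points are the 69 higher and 148 lower genes moving alike, the star is DLK1 and the dashed line marks equal change. The axes share the WT libraries, and 5 genes lie outside the axes, which end at 3.6.

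Among steroid genes, STAR fell and HSD3B2 rose in both lines. STAR (ENSG00000147465, chromosome 8, 38143649 to 38151265), which carries cholesterol into mitochondria, read 534, 527, 509 and 505 CPM in WT libraries, 373, 331, 309 and 346 for KD, and 453, 405, 432 and 444 for OE. Every engineered library was under every WT library, with KD lowest. It fell by 0.44 ± 0.04 in the pooled comparison (edgeR, adjusted p = 2.47e-12), by 0.61 ± 0.04 in KD and by 0.26 ± 0.04 in OE, and the 2 lines differed by 0.35 (adjusted p = 3.85e-08). HSD3B2 (ENSG00000203859, chromosome 1, 119414931 to 119423035), the dehydrogenase and isomerase of the steroid pathway in the adrenal, read 11.9, 7.06, 10.3 and 8.9 CPM in WT libraries, 18.4, 19.1, 17.2 and 21.2 for KD, and 18.1, 18.8, 24.5 and 21.9 for OE. All 8 engineered libraries were above the 4 of WT, and the KD and OE ranges overlapped. The pooled rise was 1.06 ± 0.12 (edgeR, adjusted p = 8.57e-09), and the interval of OE minus KD was -0.11 to 0.39 (95%). HSD3B2 has a close paralog, HSD3B1, and how reads matching both were counted is not given in the sources used here.

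No other steroid gene was called in both lines. Of 16 steroid genes tested, 2 rose and 2 fell in the pooled comparison, beside 2.21% of all genes called higher and 3.24% lower. The list's median was -0.088 in KD and 0.034 in OE (pooled -0.073, against 0.002 over all genes). CYP17A1, the 17-hydroxylase and 17,20-lyase of cortisol and androgen synthesis, read 51.7, 43.5, 46.6 and 48.8 CPM in WT libraries, 30.4, 30.1, 25.6 and 25.3 for KD, and 47.3, 42.5, 58.1 and 45.7 for OE. The KD libraries were lowest and the WT and OE ranges overlapped, so its pooled change of -0.37 ± 0.08 (edgeR, adjusted p = 0.000624) was carried by KD (-0.77, against 0.02 in OE). Of 18 genes of adrenocortical identity tested, 0 moved alike, beside 0.434% of all genes higher and 0.93% lower in both lines. In bulk RNA, fewer cells of a type and less RNA per cell cannot be told apart.

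The called genes of cholesterol synthesis were all higher. Of 23 tested, 10 were called higher and 0 lower, beside 2.21% and 3.24% of all genes. The list's median was 0.121 against 0.002 over all genes, and 4 moved alike: FDPS, MSMO1, HMGCS1 and MVD. These act in the mevalonate pathway and after it. HMGCS1 makes the precursor of mevalonate, MVD decarboxylates mevalonate diphosphate, FDPS builds farnesyl diphosphate and MSMO1 removes methyl groups from sterol intermediates. The RefSeq promoter table (GRCh38.p14, 250 bases before to 50 after the gene start) held 18 of the 23. It was searched on both strands for CCAAT, the core letters bound by the factor NF-Y, and for TCACNCCAC, the core of a sterol element. CCAAT stood in the promoter of 16 of those 18 (88.9%), in 8 of the 8 called higher that had one, and in 10846 of 27305 genes with a promoter (39.7%). TCACNCCAC stood in 1 of the 18, in 0 of the 8 and in 379 of the 27305 (1.39%). Of genes moving alike with a promoter, CCAAT stood in 26 of 51 higher and 37 of 92 lower, and TCACNCCAC in 0 and 3. A match describes these letters in this window and is not a binding site. The 4 promoters shown, 5′ to 3′ in the gene's direction, are those of the cholesterol genes that rose in both lines, with CCAAT or its reverse complement in capitals, for FDPS at chr1:155308616-155308915 (+ strand), MSMO1 at chr4:165327419-165327718 (+), HMGCS1 at chr5:43313363-43313662 (-, 1 of 2 windows listed for it, the other with no CCAAT) and MVD at chr16:88663042-88663341 (-).
FDPS: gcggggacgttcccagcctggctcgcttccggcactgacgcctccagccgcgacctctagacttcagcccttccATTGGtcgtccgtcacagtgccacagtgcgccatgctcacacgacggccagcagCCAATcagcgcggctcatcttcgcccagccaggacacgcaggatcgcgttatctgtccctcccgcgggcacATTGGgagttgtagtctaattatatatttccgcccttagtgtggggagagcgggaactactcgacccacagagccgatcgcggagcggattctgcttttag
MSMO1: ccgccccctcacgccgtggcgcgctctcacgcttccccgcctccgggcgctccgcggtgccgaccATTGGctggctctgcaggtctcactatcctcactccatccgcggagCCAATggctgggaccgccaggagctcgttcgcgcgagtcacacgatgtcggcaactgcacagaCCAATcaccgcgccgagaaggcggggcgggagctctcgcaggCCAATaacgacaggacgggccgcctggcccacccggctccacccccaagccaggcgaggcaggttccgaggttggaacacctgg
HMGCS1: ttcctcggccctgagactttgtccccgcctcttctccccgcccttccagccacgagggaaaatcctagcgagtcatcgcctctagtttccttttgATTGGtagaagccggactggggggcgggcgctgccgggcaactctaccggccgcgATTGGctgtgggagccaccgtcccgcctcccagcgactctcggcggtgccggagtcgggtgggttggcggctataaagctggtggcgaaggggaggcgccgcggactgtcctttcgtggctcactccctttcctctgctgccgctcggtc
MVD: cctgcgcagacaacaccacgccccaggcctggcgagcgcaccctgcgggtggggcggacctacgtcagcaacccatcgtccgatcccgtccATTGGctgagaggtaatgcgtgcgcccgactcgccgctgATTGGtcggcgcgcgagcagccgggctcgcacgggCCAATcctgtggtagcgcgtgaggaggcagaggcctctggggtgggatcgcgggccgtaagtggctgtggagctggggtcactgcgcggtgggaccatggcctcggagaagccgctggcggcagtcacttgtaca

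FDPS and MVD rose in both lines without overlap, and the part of CCAAT in the rises of the 4 genes was not tested. FDPS read 129, 133, 125 and 129 CPM in WT libraries, 154, 149, 152 and 146 for KD, and 160, 153, 159 and 144 for OE, a pooled rise of 0.23 ± 0.04 (edgeR, adjusted p = 0.000206). MVD read 103, 107, 107 and 94.8 CPM in WT libraries, 132, 132, 122 and 142 for KD, and 118, 116, 132 and 123 for OE, a rise of 0.30 ± 0.05 (adjusted p = 2.39e-05). All engineered libraries of both genes lay above WT. HMGCS1 read 871, 849, 838 and 875 CPM in WT libraries, 945, 922, 969 and 889 for KD, and 1015, 986, 990 and 947 for OE, also without overlap (pooled 0.16 ± 0.03, adjusted p = 0.000275). Its call in KD (adjusted p = 0.0211) was lost without KD replicate 5, WT replicate 4 or WT replicate 5 (adjusted p = 0.075, 0.0626 and 0.0882). MSMO1, outside the rule for named genes, read 148, 130, 124 and 141 CPM in WT libraries, 147, 162, 155 and 158 for KD, and 148, 166, 148 and 160 for OE. WT replicate 3 reached the lowest engineered libraries. Its pooled rise was 0.20 ± 0.05 (edgeR, adjusted p = 0.00576), and its call in OE was lost without OE replicate 4, OE replicate 6, WT replicate 4 or WT replicate 5 (adjusted p = 0.125, 0.0873, 0.0966 and 0.151). Without WT replicate 5 its pooled adjusted p was 0.0931. INSIG1, which holds back sterol synthesis in the endoplasmic reticulum, rose by 0.22 ± 0.03 in the pooled comparison (adjusted p = 3.86e-06). That was carried by OE (0.36), with 0.09 in KD (adjusted p = 0.167).

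Genes of fatty acid and triglyceride handling split by member. Of 21 tested, 4 were higher and 2 lower, beside 2.21% and 3.24% of all genes. Those moving alike numbered 5: SCD, CD36 and LPIN1 up, ELOVL2 and LPL down. SCD, the desaturase that makes monounsaturated fatty acids, read 1264, 1342, 1234 and 1211 CPM in WT libraries, 1442, 1454, 1349 and 1402 for KD, and 1626, 1657, 1637 and 1629 for OE. It stood above WT in every engineered library, and OE was above KD by 0.21 (edgeR, adjusted p = 3.66e-06). CD36 (ENSG00000135218, chromosome 7, 80369575 to 80679277), a receptor for fatty acids and lipoproteins, read 53.3, 54.6, 58.9 and 59.3 CPM in WT libraries, 123, 128, 127 and 134 for KD, and 60.7, 71.7, 72 and 67.5 for OE. All engineered libraries exceeded WT, OE by little and KD by far: the change was 1.18 ± 0.06 in KD and 0.27 ± 0.07 in OE (adjusted p = 7.24e-21 and 0.00615), a difference of -0.91. LPIN1, a phosphatidic acid phosphatase and list member outside the rule for named genes, rose by 0.28 ± 0.05 (edgeR, adjusted p = 5.23e-05).

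ELOVL2 and LPL fell. ELOVL2, an elongase of polyunsaturated fatty acids, read 5.1, 5.63, 7.43 and 6.19 CPM in WT libraries, 1.06, 1.17, 1.28 and 1.2 for KD, and 2.09, 2.23, 2.21 and 3.4 for OE. No engineered library reached WT, and KD lay under OE (-2.36 ± 0.28 and -1.28 ± 0.25). LPL, the lipase that frees fatty acids from lipoproteins, read 4.06, 7.06, 7.1 and 6.84 CPM in WT libraries, 1.51, 2.84, 2.31 and 3.08 for KD, and 2.48, 3.09, 2.6 and 2.39 for OE, without overlap although WT replicate 3 was the lowest of WT. Its pooled fall was 1.31 ± 0.21 (edgeR, adjusted p = 1.23e-05).

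The called genes of the extracellular matrix were all lower, and fewer of them moved alike. Of 14 interstitial matrix genes tested 0 were higher and 5 lower in the pooled comparison, beside 3.24% of all genes called lower, and 3 moved alike. The list's median log2 change was -0.182 in KD and -0.803 in OE (pooled -0.233). Of 12 basement membrane genes 0 were higher and 5 lower and 1 moved alike, with medians of -0.021 in KD and -0.337 in OE (pooled -0.131). COL6A2 (ENSG00000142173, chromosome 21, 46098097 to 46132849), a chain of collagen VI, read 166, 161, 144 and 151 CPM in WT libraries, 69.7, 57.7, 50.4 and 64 for KD, and 88.7, 74.1, 92.6 and 90.7 for OE. Engineered libraries were all under WT and KD was under OE, with a pooled fall of 1.10 ± 0.06 (edgeR, adjusted p = 7.22e-13) and a difference between lines of 0.52 (adjusted p = 2.87e-05). COL5A2, a chain of collagen V, fell by 0.97 ± 0.17 (adjusted p = 5.4e-05) from 8.57 ± 1.83 CPM (mean ± SD, n = 4) to 4.69 ± 0.721 in KD and 4.04 ± 0.874 in OE. SPARC, a secreted collagen-binding glycoprotein, read 2415, 2427, 2428 and 2331 CPM in WT libraries, 2147, 1914, 1990 and 2072 for KD, and 2121, 2165, 2085 and 2120 for OE, lower in every engineered library (pooled -0.21 ± 0.03, adjusted p = 2.03e-07).

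Among basement membrane genes LAMC1 alone moved alike. LAMC1, the laminin gamma 1 chain shared by most laminins, read 444, 455, 470 and 507 CPM in WT libraries, 329, 311, 298 and 308 for KD, and 334, 324, 348 and 367 for OE. Both lines lay under all WT libraries (pooled -0.52 ± 0.04, edgeR adjusted p = 8.43e-16). NID1 and COL4A1 were called in the pooled comparison through OE. NID1, which links laminin to collagen IV, read 242, 235, 237 and 247 CPM in WT libraries, 251, 234, 237 and 249 for KD, and 135, 128, 132 and 135 for OE. Its OE libraries were the low ones, and KD and WT overlapped. COL4A1 had a mean of 316 CPM in WT, 330 in KD and 199 in OE.

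ITGA7, ITGB1, ITGAV and NCAM1 were chosen after their values were seen from the genes moving alike. No list of adhesion receptors was made, so they do not describe adhesion receptors as a group. ITGA7, an integrin that binds laminin, read 717, 721, 715 and 729 CPM in WT libraries, 651, 646, 648 and 634 for KD, and 564, 540, 611 and 619 for OE, with every engineered library under WT (pooled -0.23 ± 0.03, edgeR adjusted p = 7.59e-07). ITGB1, the beta 1 chain it pairs with, fell from 599 CPM to 516 in KD and 543 in OE, and its call in OE was lost without OE replicate 6 (adjusted p = 0.0614). ITGAV, an alpha chain for vitronectin and other ligands, changed by -0.32 ± 0.05. Its call in OE (adjusted p = 0.0329) was lost without OE replicate 3, OE replicate 5, OE replicate 6, WT replicate 4 or WT replicate 6 (adjusted p = 0.145, 0.0852, 0.0832, 0.0666 and 0.147), and it did not stay called in every scaling. NCAM1, a neural cell adhesion molecule, changed by -0.18 ± 0.04 without overlap (adjusted p = 0.000296), and was also lost in at least 1 other scaling.

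Signalling receptors and ligands gave several of the larger changes. GRB10 (ENSG00000106070, chromosome 7, 50590063 to 50793462), an imprinted adaptor that dampens insulin and IGF receptor signalling, read 14.3, 12.1, 13.4 and 11.6 CPM in WT libraries, 4.54, 4.94, 4.31 and 4.62 for KD, and 3.43, 3.61, 2.84 and 3.26 for OE. No engineered library reached WT, and it fell by 1.73 ± 0.14 (edgeR, adjusted p = 2.83e-13). NOTCH3 (ENSG00000074181, chromosome 19, 15159038 to 15200981), a Notch receptor, read 18.6, 21.6, 17 and 19.8 CPM in WT libraries, 8.39, 9.79, 7.42 and 7.02 for KD, and 9.81, 4.55, 8.36 and 8.03 for OE. WT and engineered libraries did not overlap, and KD and OE did (pooled -1.28 ± 0.13, adjusted p = 2.66e-10; OE minus KD -0.42 to 0.25). Of 19 Notch genes tested it was the 1 called, beside 5.45% of all genes, and the list's median was 0.02.

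In the Wnt list 3 genes fell in both lines. SFRP1 (ENSG00000104332, chromosome 8, 41261958 to 41309497), a secreted antagonist that binds Wnt ligands, read 98, 94.7, 102 and 92.6 CPM in WT libraries, 47.7, 49, 42.3 and 48.7 for KD, and 28.2, 36.7, 31.8 and 34.9 for OE. KD and OE were both under WT, OE further, with a pooled fall of 1.30 ± 0.06 (edgeR, adjusted p = 2.72e-23) and a difference between lines of -0.51 (adjusted p = 1.61e-06). WNT4, a ligand needed in zonation of the mouse adrenal and outside the rule for named genes, read 171, 170, 166 and 160 CPM in WT libraries, 147, 126, 139 and 143 for KD, and 147, 147, 141 and 143 for OE, without overlap (pooled -0.24 ± 0.04, adjusted p = 0.000137). APCDD1, an inhibitor at the cell surface, changed by -0.24 ± 0.04. Its call in KD was lost without KD replicate 4 or WT replicate 4 (adjusted p = 0.0632 and 0.0858) and in another scaling. Of 24 Wnt and beta-catenin genes 5 were higher and 3 lower, beside 2.21% and 3.24% of all genes, with a median of 0.091.

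Receptors for hormones moved both ways. TSHR, the thyrotropin receptor, read 13.6, 19.3, 17.2 and 20.4 CPM in WT libraries, 7.94, 9.2, 7.58 and 9.76 for KD, and 9.24, 6.44, 8.21 and 7.24 for OE, with all engineered libraries under WT (pooled -1.11 ± 0.12, edgeR adjusted p = 3.69e-09). GNRHR, the gonadotropin-releasing hormone receptor, read 27.5, 26.8, 26.4 and 29.8 CPM in WT libraries, 38.4, 40.4, 40.9 and 37.9 for KD, and 49.4, 44.2, 42.4 and 45.6 for OE, with all above WT (pooled 0.62 ± 0.07, adjusted p = 1.81e-08). EDNRA, an endothelin receptor chosen after its values were seen, fell from 9.93 CPM to 6.48 in KD and 3.47 in OE. Its call in KD was lost without WT replicate 4 (adjusted p = 0.0975). GFRA2, a receptor for the growth factor neurturin, fell by 1.19 ± 0.16 (edgeR, adjusted p = 4.43e-07).

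ETV4 and FGF9 rose. ETV4 (ENSG00000175832, chromosome 17, 43527844 to 43579620), a transcription factor of the ETS family that ERK signalling raises, read 5.1, 4.96, 3.84 and 4.67 CPM in WT libraries, 10.4, 8.87, 9.9 and 11.9 for KD, and 9.24, 6.96, 12 and 9.19 for OE. Its engineered libraries were all above WT (pooled 1.08 ± 0.16, edgeR adjusted p = 3.1e-06), and the lines did not differ beyond their error (OE minus KD -0.46 to 0.19). FGF9, a fibroblast growth factor chosen after its values were seen, read 5.1, 5.06, 7.93 and 6.08 CPM in WT libraries, 9.6, 11.9, 10.6 and 11.3 for KD, and 11.7, 13.1, 12.4 and 7.67 for OE, where WT replicate 5 and OE replicate 6 overlapped. Of 12 ERK feedback genes tested 2 were higher and 0 lower (median 0.217). Of 19 immediate early genes 2 were higher, FOSL2 (0.27) and BTG2 (0.49), with 0 alike. Over all genes tested 2.21% were called higher, and 0.434% were higher and 0.93% lower in both lines. The pooled call of BTG2 was lost without WT replicate 4 or WT replicate 5 (adjusted p = 0.108 and 0.0605).

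**Figure D3:**
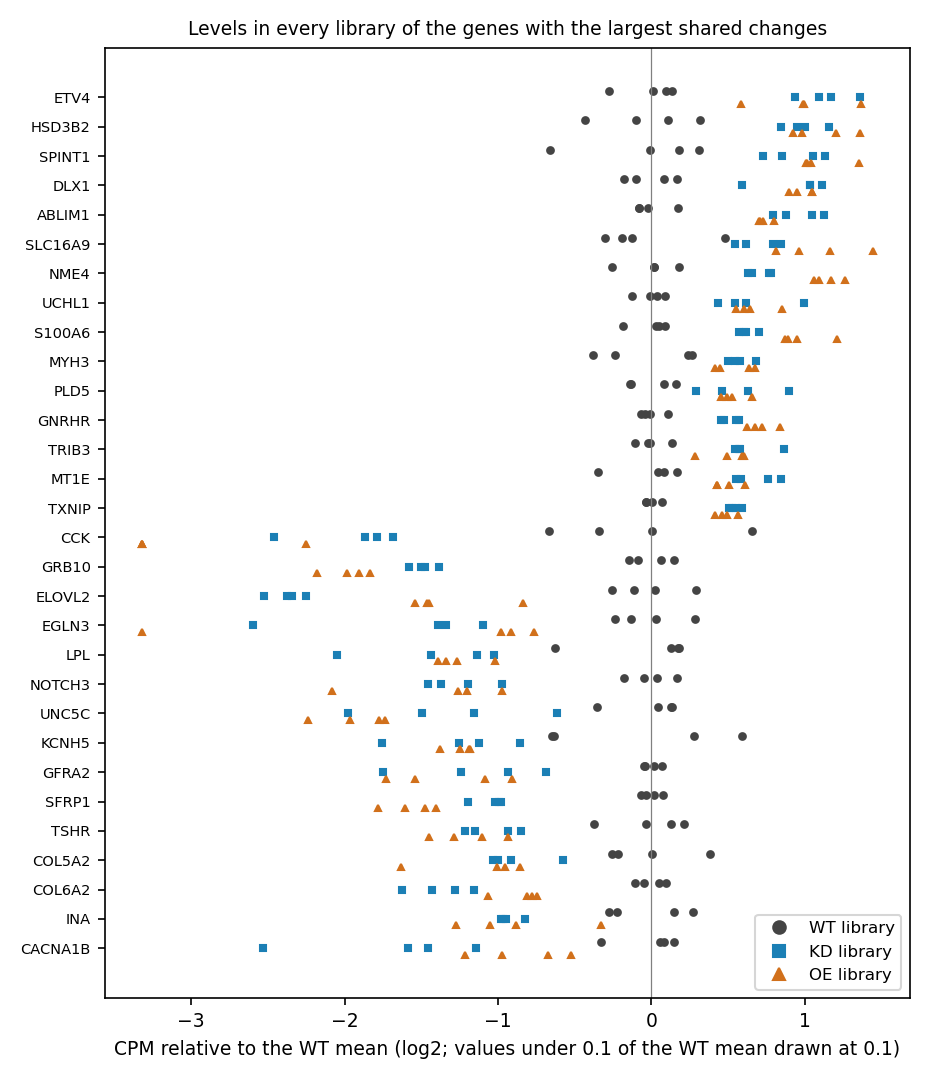
CPM of each library relative to the WT mean (log2) for the 15 highest and 15 lowest genes by the smaller of their 2 line changes, with WT, KD and OE as circles, squares and triangles; values under 0.1 of the WT mean are drawn there. Only protein-coding genes moving alike with no engineered library in the WT range could be drawn, so the lack of overlap was a condition of entry and not a result. FGF9, which rose by 0.83 in KD and 0.88 in OE, was left out because its WT and OE ranges overlapped.

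CCK, CACNA1B, KCNH5 and INA were among the 15 lowest genes of the rule for named genes. That rule takes protein-coding genes moving alike without overlap with WT and ranks them by the smaller line change. CCK (ENSG00000187094, chromosome 3, 42257825 to 42266207), a neuropeptide and gut hormone, read 4.34, 2.77, 2.17 and 1.74 CPM in WT libraries, 0.756, 0.502, 0.798 and 0.856 for KD, and 0, 0.258, 0.158 and 0.579 for OE. WT was low in count and all engineered libraries were lower (pooled -2.62 ± 0.39, edgeR adjusted p = 2.89e-06). CACNA1B, the pore of a neuronal calcium channel, read 18.9, 13.6, 17.7 and 18 CPM in WT libraries, 6.2, 5.69, 2.95 and 7.71 for KD, and 10.7, 8.68, 7.34 and 11.9 for OE, with KD under OE by 0.78 (adjusted p = 0.00545). KCNH5, a voltage-gated potassium channel, fell by 1.23 ± 0.22 (adjusted p = 0.000104), and INA, an intermediate filament of neurons, by 0.88 ± 0.15 (adjusted p = 5.18e-05). Of 21 potassium and calcium channel genes tested, 0 were higher and 3 lower in the pooled comparison, beside 3.24% of all genes called lower. CACNA1B alone in that list, which does not hold KCNH5, moved alike. The other 2 were called in KD but not in OE. The list's median was -0.215 in KD and 0.073 in OE (pooled -0.005, or 0.021 with library sizes alone).

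Among guidance receptors for neurites 3 fell in both lines. UNC5C (ENSG00000182168, chromosome 4, 95162504 to 95549206), a netrin receptor, read 7.65, 5.82, 8.1 and 8.14 CPM in WT libraries, 1.89, 4.85, 2.63 and 3.34 for KD, and 1.9, 2.23, 1.58 and 2.17 for OE, under WT in every engineered library (pooled -1.57 ± 0.20, edgeR adjusted p = 1.4e-07). It overlaps an antisense gene outside the rule for named genes, UNC5C-AS1, which also fell (pooled -2.23 ± 0.48) but was not called in both lines without OE replicate 4, OE replicate 6 or WT replicate 6 (adjusted p = 0.0522, 0.0793 and 0.0535). The strand setting of the counting is not given in the sources used here. NRP1, a receptor for semaphorins and VEGF, fell by 0.61 ± 0.10 (adjusted p = 7.84e-06). UNC5B, another netrin receptor, changed by -0.55 ± 0.10, but its call in OE (adjusted p = 0.0477) was lost in 8 of 12 fits that left out a library, with adjusted p of 0.0532 to 0.28 (KD replicate 6, every OE replicate, and WT replicates 3, 4 and 5), and in another scaling. DPYSL3, a collapsin response mediator chosen after its values were seen, read 26.8, 32.5, 29.1 and 28.1 CPM in WT libraries, 19.3, 16, 17.5 and 15.6 for KD, and 16.1, 20.9, 14 and 18.5 for OE, with no overlap (pooled -0.76 ± 0.10, adjusted p = 1.13e-07). Of 30 axon guidance genes 2 were higher and 4 lower, beside 2.21% and 3.24% of all genes, with a median of -0.03.

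Other genes among the 15 highest had small WT levels or distinct roles. SPINT1, an inhibitor of hepatocyte growth factor activator, rose by 1.04 ± 0.21, DLX1, a homeobox factor, by 0.97 ± 0.21, and ABLIM1, an actin-binding LIM protein, by 0.85 ± 0.09 (edgeR, adjusted p = 0.000468, 0.00176 and 1.76e-10). SLC16A9, a carnitine and monocarboxylate transporter, rose by 0.92 ± 0.16, PLD5 by 0.56 ± 0.11 and MYH3, an embryonic myosin, by 0.56 ± 0.11. NME4, a mitochondrial nucleoside diphosphate kinase, and S100A6, a calcium-binding protein, rose further in OE, by 0.44 and 0.36 (adjusted p = 0.00958 and 0.00244). UCHL1, a ubiquitin hydrolase of neurons, rose by 0.67 ± 0.16. Its call in KD or OE was lost without KD replicate 5, OE replicate 6, WT replicate 4 or WT replicate 5 (adjusted p = 0.0794, 0.0873, 0.0664 and 0.0519).

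Stress and metabolic regulators followed. TXNIP (ENSG00000265972, chromosome 1, 145992435 to 145996600), which binds thioredoxin and restrains glucose uptake, read 210, 226, 216 and 210 CPM in WT libraries, 325, 307, 311 and 316 for KD, and 319, 287, 304 and 297 for OE. It was above WT in every engineered library and the lines overlapped (pooled 0.51 ± 0.04, edgeR adjusted p = 2.83e-15). PDK4, a kinase that switches off pyruvate dehydrogenase, read 1205, 1183, 1159 and 1224 CPM in WT libraries, 1322, 1288, 1340 and 1318 for KD, and 1400, 1442, 1372 and 1368 for OE, also without overlap (pooled 0.18 ± 0.03, adjusted p = 4.79e-06). TRIB3, a pseudokinase raised by ATF4, rose by 0.57 ± 0.08 (adjusted p = 2.04e-06), and IRS1, the insulin receptor substrate, by 0.43 ± 0.08 (chosen after its values were seen). FKBP5, a cochaperone of the glucocorticoid receptor, chosen likewise, rose by 0.37 ± 0.07 (edgeR, adjusted p = 9e-05). MT1E, a metallothionein with close paralogs, rose by 0.59 ± 0.08 (adjusted p = 3.19e-07).

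MTHFD2 and EGLN3 each lost their call in OE when any 1 of several libraries was left out. MTHFD2, a mitochondrial folate enzyme, rose by 0.29 ± 0.07, and its call in OE was lost without OE replicate 3, WT replicate 4 or WT replicate 5 (adjusted p = 0.0636, 0.114 and 0.0598). EGLN3, an oxygen-sensing hydroxylase, read 3.68, 3.44, 4.93 and 4.13 CPM in WT libraries, 1.89, 0.669, 1.6 and 1.54 for KD, and 2.38, 2.15, 2.05 and 0.29 for OE, with OE replicate 6 far under the others. Its call in OE was lost without OE replicate 6, WT replicate 3, WT replicate 5 or WT replicate 6 (edgeR, adjusted p = 0.128, 0.0537, 0.116 and 0.0564). Of 26 ATF4 genes 2 were higher and 1 lower (median 0.032), and of 29 hypoxia and glycolysis genes 1 was higher and 2 lower (median 0.011). Over all genes tested 2.21% were called higher and 3.24% lower.

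The most abundant genes moved by small amounts. TFRC, the transferrin receptor for iron uptake, read 1737, 1802, 1758 and 1856 CPM in WT libraries, 1431, 1485, 1577 and 1534 for KD, and 1488, 1587, 1453 and 1541 for OE, and HSPA8, a constitutive heat shock protein with many pseudogenes, read 1409, 1400, 1343 and 1327 CPM in WT libraries, 1288, 1182, 1244 and 1256 for KD, and 1214, 1229, 1122 and 1184 for OE. Both were lower in every engineered library (pooled -0.24 ± 0.03 and -0.17 ± 0.03; edgeR, adjusted p = 2.21e-08 and 4.56e-05). CD63, a tetraspanin of late endosomes, changed by -0.24 ± 0.03, and DAB2, an endocytic adaptor, by -0.19 ± 0.03. EEF1A1, a translation elongation factor with many pseudogenes, read 3995, 3868, 3979 and 3846 CPM in WT libraries, 4516, 4087, 4129 and 4399 for KD, and 4234, 4461, 4133 and 4272 for OE, and its call in OE was lost without OE replicate 4 (adjusted p = 0.0713). Of 16 heat shock genes 1 was higher and 3 lower (median -0.049), beside 2.21% and 3.24% of all genes, with HSPA4 (-0.20 ± 0.04) and HSPA8 alike.

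Counts in the remaining lists are read beside the 5.45% of all genes called, 2.21% higher and 3.24% lower. Of 25 NRF2 and glutathione genes 2 were higher and 3 lower (median 0.087 in KD and -0.023 in OE). In that list GSR, glutathione reductase, changed by -0.27 ± 0.06, a call in OE lost without OE replicate 3 (adjusted p = 0.0604). TXN, thioredoxin, changed by -0.21 ± 0.05, and its call in KD was lost without KD replicates 3, 4 or 6 or WT replicates 4 or 5 (edgeR, adjusted p = 0.108, 0.104, 0.0937, 0.104 and 0.0936) and in another scaling. PGD of the pentose phosphate path rose by 0.19 ± 0.05 in the pooled comparison, a call lost without WT replicate 3 (adjusted p = 0.0677). In the MHC class I list 0 of 17 genes were higher and 4 lower (median -0.045). Those of smallest pooled adjusted p were ERAP1, a neighbouring peptidase gene on chromosome 5 and a chaperone also counted among the endoplasmic reticulum chaperones. None of these is a class I chain, so their calls do not describe class I molecules themselves. ERAP1, a peptide-trimming aminopeptidase, changed by -0.33 ± 0.06. Its call in OE was lost without OE replicate 6 or WT replicate 5 (adjusted p = 0.0624 and 0.074). Of 24 ABC transporters 1 was higher and 1 lower, with ABCA5 alike (-0.50 ± 0.08, adjusted p = 3.23e-05) and a median of -0.024 that became 0.003 with library sizes alone.

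In the S phase, G2 and M phase, p53, interferon, endoplasmic reticulum chaperone and mitochondrial genome lists 0 genes moved alike. Over all genes tested 0.434% were higher and 0.93% lower in both lines, so 0 in lists of this size is near that share. Of 43 S phase genes 3 were higher and 1 lower (median 0.146 in KD and -0.019 in OE), with PCNA, the clamp of DNA polymerase, rising by 0.19 ± 0.04. Of 38 G2 and M phase genes 0 were higher and 1 lower (median 0.01), and of 23 p53 targets 3 were higher and 0 lower (median 0.09), CCNG1 among them (0.23 ± 0.05). Of 28 interferon genes 1 was higher, OAS1 (0.45 ± 0.13), and its pooled call was lost without KD replicate 3, OE replicate 6 or any 1 of the WT replicates (edgeR, adjusted p = 0.0576 to 0.108). Of 20 endoplasmic reticulum chaperones 0 were higher and 2 lower (median -0.052). Of 15 genes of the mitochondrial genome 0 were higher and 2 lower (median -0.238), and MT-ATP8, a subunit of ATP synthase, changed by -0.42 ± 0.08, beside the lower mitochondrial share of KD replicate 3. Of the fibroblast, endothelial and immune markers tested (3, 1 and 2) 0 were called, and of 6 chromaffin and neuroendocrine markers 1 was higher, CHGB (pooled 0.49 ± 0.07).

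**Figure D4:**
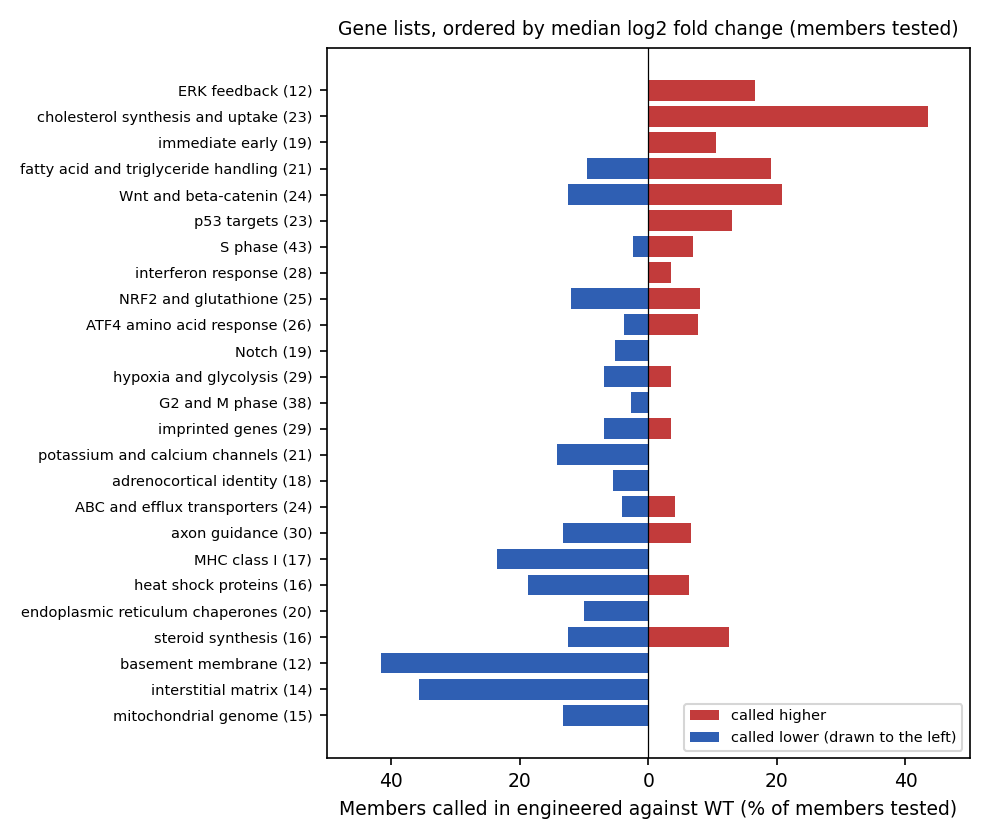
Percent of tested members of each list called higher (right) or lower (drawn to the left) in engineered against WT, ordered by median log2 fold change, with the number tested in brackets. Cholesterol synthesis has 10 of 23 higher, and basement membrane and interstitial matrix have 5 of 12 and 5 of 14 lower. Over all genes tested 2.21% were called higher and 3.24% lower.

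Of 29 imprinted genes tested 1 was higher and 2 lower, beside 2.21% and 3.24% of all genes. The list's median was -0.134 in KD and 0.126 in OE. H19, a maternally expressed imprinted RNA, read 0, 0.382, 0.251 and 0.217 CPM in WT libraries, 4.39, 3.18, 2.95 and 4.11 for KD, and 0.19, 0.515, 0.631 and 0.507 for OE, from 0 to 4 counts per WT library. Its KD libraries were high and OE overlapped WT, so its pooled rise of 2.57 ± 0.52 (edgeR, adjusted p = 0.000571) was carried by KD. The 5 genes of smallest pooled adjusted p that were called in 1 line included NID1, above, and 4 others. CTSZ, a lysosomal protease, averaged 45.8 CPM in WT, 96.9 in KD and 50.4 in OE. BMP4, a growth factor, averaged 118, 190 and 131, and TFPI2, a protease inhibitor, 20.1, 46.3 and 24.9. GABBR2, a GABA receptor subunit, averaged 267, 253 and 179 CPM and was low in OE.

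Moving alike did not mean moving equally. OE and KD differed by their own test in 40 of the 217 (18.4%), beside 13.8% of all genes tested. Of the 10 higher ones KD was farther from WT in 3 and OE in 7, and of the 30 lower ones KD was farther in 18 and OE in 12. The 95% interval of OE minus KD lay within 1.5-fold for 193 of the 217, 66 higher and 127 lower. How many of all genes tested had such an interval was not counted. For the other genes moving alike the interval reached past 1.5-fold. For CD36 the whole interval, -1.03 to -0.79 on the log2 scale, lay beyond it.

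Genes that fell in both lines were unevenly placed along the genome. Chromosome 8 held 30 of the 148, out of 522 genes tested there (5.75%, beside 0.93% over all chromosomes), and chromosome 5 held 22 of 759 (2.9%). Chromosome 20 held 8 of the 69 higher genes, out of 397 tested (2.02%, beside 0.434%). The positions are GENCODE release 29 coordinates on GRCh38, cut into 263 windows of 10 Mb with at least 20 genes tested, a choice made after the data were seen. The first 50 Mb of chromosome 8 had median changes over all genes tested of -0.185, -0.383, -0.239, -0.162 and -0.189 in its 5 windows, against quartiles over windows of -0.023 and 0.026. In the window from 10 to 20 Mb 13 of 36 genes were called lower and 0 higher, with medians of -0.459 in KD and -0.242 in OE. From 80 to 90 Mb the same chromosome had a median of 0.008. STAR, LPL, GFRA2, SFRP1, GSR, CLU and CTSB all lie in those 50 Mb. CTSB, a lysosomal protease (11842524 to 11869448), read 159, 157, 146 and 142 CPM in WT libraries, 94.8, 78, 84.4 and 89.6 for KD, and 96.4, 97.2, 87.8 and 96.6 for OE, and CLU, a secreted chaperone, fell by 0.42 ± 0.04 (both chosen after their values were seen). The pooled fall of CTSB was 0.74 ± 0.05 (edgeR, adjusted p = 1.12e-16), without overlap.

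In all, 11 windows had a median under -0.1, on chromosomes 1, 5, 8 and 18, and held 48 of the 148 lower genes (32.4%, HSPA4, ERAP1 and APCDD1 among them) and 435 of the genes tested (2.73%). The other 100 lower genes lay outside them. LAMC1 is 1 of these, in the chromosome 1 window from 180 to 190 Mb, where 9 of 32 genes were called lower and 0 higher (median -0.054). The median change of the lower genes was -0.336 inside the 11 windows and -0.331 outside. Because the 11 windows were picked by the changes of their own genes, their high share of lower genes is partly set by that choice. Windows with a median over 0.1 numbered 4, on chromosomes 2 and 20, and were picked in the same way. They held 4 of the 69 higher genes, LPIN1 among these, and 166 of the genes tested. In the first 10 Mb of chromosome 20, 20 of 69 genes were called higher and 0 lower, with a median of 0.248 in KD and 0.118 in OE, and TRIB3 and PCNA lie there. That window held 3 of the 8 genes of chromosome 20 that were higher in both lines. The rest lay past 30 Mb, in windows with medians of 0.009, -0.003 and 0.058. The part of position in these changes was not tested.

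**Figure D5:**
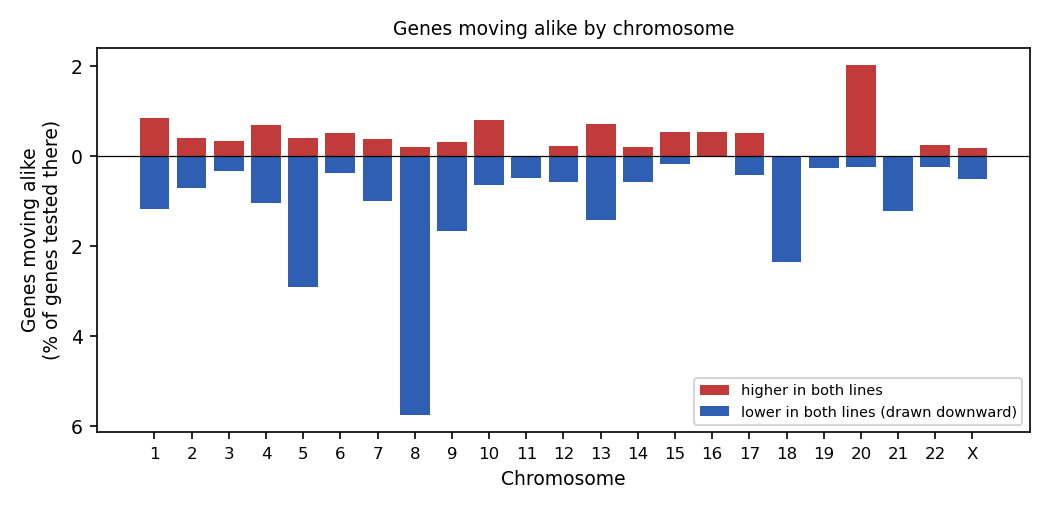
Percent of the genes tested on each chromosome that moved alike in both lines, higher above the line and lower drawn downward. Chromosome 8 has 5.75% lower, chromosome 5 has 2.9% and chromosome 20 has 2.02% higher.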

How the data were processed

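Raw counts per Ensembl gene for 12 strand-specific libraries of H295R total RNA were deposited by the authors. The submitters' processing notes name the build GRCh38 and, with no order or role, HISAT2 1.03, featureCounts from Subread, FastQC and DESeq2. Not given in the sources used here are the annotation release, the strand setting and the treatment of reads with several matches. One gene with blank counts (ANK2) and 3 lines that name no gene were left out. Coordinates came from GENCODE release 29 (58452 of 60671 genes found) and promoters from RefSeq (GRCh38.p14).

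Genes passing filterByExpr by group (minimum count 10, minimum total 15) entered edgeR 4.0.16, run under R 4.3.3 (TMM, robust quasi-likelihood fit of 3 groups, 9 residual degrees of freedom, common biological coefficient of variation 7.38%) and adjusted by the method of Benjamini and Hochberg over 15916 genes. The pooled contrast was the mean of KD and OE minus WT. Standard errors are the fold change over the square root of F. The fit was tested on simulated data. Alternatives were DESeq2 1.42.0, RLE factors, library sizes alone, other filters, a fold of 1.2, 1 group of 8, a replicate block, no mitochondrial genes and leaving out each library. Same-numbered libraries deviated together by correlations of -0.0328 to 0.0713, so little shared deviation by number was seen. This does not show whether same-numbered samples were grown or handled together.

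The members, the 29 gene lists and the rules were chosen with earlier results of these data known. Named genes are DLK1, the 15 highest and 15 lowest protein-coding genes moving alike (by the smaller line change, mean log2 CPM of at least 0, no overlap with WT), the 10 most abundant, up to 3 called members of each list by adjusted p, and 5 genes called in 1 line or in opposite directions. The genes described were taken from these as the clearest of each group, and genes from outside the rule are marked. Depth of 9303266 to 13797397 counts limits what can be seen in genes of a few CPM. A few genes are not reported here.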

Additional observations from a re-analysis of the deposited data

Results flagged for a closer look

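Among the 91 genes described here and 3 groups of 4 libraries each, 11 of 273 groups held a library set apart from the other 3 by Dixon's 95% criterion. Chance flags about 1 in 20 groups. Each is given with its level, the nearest other library and the gap as a part of the range: SPINT1 in OE replicate 6 (highest, 6.88 CPM, next 5.52, 0.924), TRIB3 in KD replicate 3 (highest, 44.5 CPM, next 36.5, 0.904), ELOVL2 in OE replicate 6 (highest, 3.4 CPM, next 2.23, 0.894), LPL in WT replicate 3 (lowest, 4.06 CPM, next 6.84, 0.915), SPARC in WT replicate 6 (lowest, 2331 CPM, next 2415, 0.862), DAB2 in WT replicate 6 (highest, 1004 CPM, next 986, 0.962), LPIN1 in KD replicate 5 (lowest, 119 CPM, next 137, 0.843), COL4A1 in KD replicate 3 (highest, 354 CPM, next 322, 0.973), CTSB in OE replicate 5 (lowest, 87.8 CPM, next 96.4, 0.915), IRS1 in OE replicate 4 (lowest, 36.6 CPM, next 39, 0.896) and EGLN3 in OE replicate 6 (lowest, 0.29 CPM, next 2.05, 0.843).

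The change against WT differed between the lines, by the edgeR test of OE against KD (adjusted p under 0.05), for 32 of the 91 genes described here. Of the 91, 20 lie outside the rule for named genes. Of the 19 genes that the rule names and that are not described, 13 were called in OE against KD as well. Over all genes tested 13.8% were called, and the genes described were partly chosen for their changes. The change in OE minus that in KD, in log2 units, was positive for NME4 0.44, S100A6 0.36, ELOVL2 1.08, COL6A2 0.52, CACNA1B 0.78, SCD 0.21, DAB2 0.10, STAR 0.35, CYP17A1 0.80, INSIG1 0.27, LAMC1 0.14, CCNG1 0.17, MT-ATP8 0.28, ITGAV 0.25, UNC5B 0.36 and DLK1 1.26. It was negative for SFRP1 -0.51, CD63 -0.11, CD36 -0.91, NID1 -0.88, COL4A1 -0.73, PCNA -0.12, CTSZ -0.94, BMP4 -0.54, GABBR2 -0.50, TFPI2 -0.89, CLU -0.38, ITGA7 -0.14, EDNRA -0.89, APCDD1 -0.19, H19 -2.93 and CHGB -0.85. No explanation was tested for any of these.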

How the results depend on the processing

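The pooled comparison gave 867 calls (351 higher, 516 lower) and 217 genes moving alike (69 and 148). Against a fold of 1.2 these became 64 (18 and 46) and 27 (8 and 19), with 138, 98 and 250 calls left in KD against WT, OE against WT and OE against KD. With the 8 engineered libraries as 1 group the pooled calls were 278 (97 and 181), since the difference between lines then counts as spread. With library sizes alone the genes moving alike were 120 higher and 110 lower. Leaving out 1 library at a time gave 553 (without WT replicate 5) to 990 (without KD replicate 3) pooled calls, 206 to 386 higher and 347 to 604 lower, and 165 to 265 genes moving alike (54 to 88 higher, 109 to 177 lower). The mitochondrial share difference was -1.08 to -0.71 percentage points over the same omissions. The other settings (DESeq2, RLE factors, other filters, no mitochondrial genes) left each count within 1.5 times its value. The replicate block gave 796 pooled calls and 205 genes moving alike. Same-numbered libraries showed little shared deviation, and the block moved no count by over 1.5 times.

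Of the 91 genes described, 0 reversed, 49 lost their pooled call against a fold of 1.2 and 18 with 1 group of 8. Leaving those 2 settings aside, 4 lost it in a fit that left out a library: MSMO1, OAS1, PGD and BTG2. The rule of a call in both lines was stricter, and 115 of the 217 genes kept it in all 12 such fits. Depth limits genes of a few CPM, such as CCK and H19, where a library held few counts.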

Other observations

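Some genes moving alike belong to no list above and were chosen after their values were seen. ATG14 and BECN1, 2 subunits of the lipid kinase complex that starts autophagosomes, rose in both lines. ATG14 read 31, 30.8, 30.1 and 32.1 CPM in WT libraries, 39.2, 45.8, 40.3 and 41.4 for KD, and 43.5, 39, 35.7 and 42.1 for OE, above WT in every engineered library (pooled 0.40 ± 0.07, edgeR adjusted p = 0.000175). BECN1 read 44.4, 42, 42.8 and 41.6 CPM in WT libraries, 51.1, 52.1, 51.7 and 52.1 for KD, and 53.7, 55.1, 52.4 and 48.8 for OE, also without overlap (pooled 0.29 ± 0.06, adjusted p = 0.00208).

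CTSC, a lysosomal dipeptidyl peptidase, read 250, 248, 247 and 242 CPM in WT libraries, 207, 213, 226 and 212 for KD, and 207, 218, 200 and 219 for OE, lower in every engineered library (pooled -0.22 ± 0.04, edgeR adjusted p = 7.96e-05). BASP1, a membrane protein of growing axons, read 36.5, 29, 27.1 and 29.9 CPM in WT libraries, 19.7, 18.3, 19.7 and 17.4 for KD, and 16.2, 14.6, 17 and 20.3 for OE, again without overlap (pooled -0.77 ± 0.09, adjusted p = 3.12e-08). DPYSL2, a relative of DPYSL3 that acts on microtubules of axons, fell from 58.9 CPM in WT to 42.8 in KD and 48.7 in OE. It lies in the first 50 Mb of chromosome 8, and its call in OE was lost without OE replicate 5 or WT replicate 4 (adjusted p = 0.085 and 0.116).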
